A study of Mus musculus with 6 samples.

Results

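Genes for voltage-gated sodium channels, voltage-gated calcium channels and TRP channels were examined in RNA-seq of mouse oligodendrocytes. Members were the protein-coding rows named Scn, Cacna, Cacnb, Cacng or Trp with an a, c, m or v family letter, and the rule found 61 of 46983 rows. They comprised 13 sodium channel genes, 26 calcium channel genes and 22 TRP channel genes. The rule does not take in Scn2a1, the older symbol under which the table lists another sodium channel pore gene, and that gene is given separately.

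Oligodendrocytes, the cells that make central myelin, were isolated fresh from brain and sequenced without culture. The 3 WT libraries came from mice that the labels call controls. The 3 libraries labelled Qk-KO came from Plp-CreERT2;QKLoxP/LoxP mice, labelled Qk-/-. All mice were FvB/C57BL6 hybrids. Mice of both groups were given tamoxifen when 8 weeks old, and their brains were collected after 4 more days. In this model the Plp promoter, which is active in the oligodendrocyte lineage, drives a Cre recombinase that tamoxifen switches on. The labels do not say whether the controls carry the Cre transgene or the floxed allele. Nor do they state that the libraries come from different mice, so a p-value covers only library-to-library spread, which may be technical.

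Each voltage-gated channel has a pore-forming alpha subunit that opens when the membrane depolarises. Smaller accessory subunits (beta for sodium channels, alpha2delta and beta for calcium channels) set its surface level and gating, and most genes of the gamma family encode AMPA receptor partners. TRP channels are cation channels opened by lipids, heat, osmotic stretch, oxidants or the state of the calcium stores. Quaking, the protein made by Qk, binds RNA at ACUAA-type motifs and controls splicing, stability and localisation of myelin messages. In cells of the oligodendrocyte lineage, L-type calcium channels are known for their role in precursor development and myelination.

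The libraries were not alike in make-up. Ribosomal RNA features took 63.2% to 64.8% of the signal in the WT libraries and 59.8% in Qk-KO replicate 1, but only 2.23% in Qk-KO replicate 2 and 1.88% in replicate 3. Estimated totals were 23600000 to 32500000 reads in the first 4 of these and 71400000 to 78900000 in the last pair. Library type can therefore not be told apart from genotype in replicates 2 and 3, and each called member is given also for Qk-KO replicate 1 alone. A fit with library type as a term also takes its genotype difference from that replicate against WT. Both settings thus give the same difference and are not separate checks, as they differ only in the spread used. The Qk level summed over the gene was 15.41, 15.67 and 15.31 in WT and 16.10, 15.62 and 15.30 in the libraries labelled Qk-KO, with a difference of 0.21 ± 0.25 (adjusted p = 0.567). A total over all exons does not read out a deletion of part of the gene, so this level did not check the labels, and every direction here rests on the labels alone.

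Markers of cell types differed between the groups, and their part in the channel results was not tested. Of 8 mature oligodendrocyte markers, 6 rose, and the summed log2 level of the list was 18.89 to 19.28 in WT and 19.34 to 19.51 in the libraries labelled Qk-KO. The astrocyte list had 7 of 8 markers lower, with summed levels of 16.83 to 17.18 against 14.12 to 14.78. Its remaining marker, Gfap, went the other way, at 0.81 ± 0.26, and was not called by limma (adjusted p = 0.0526). All 6 endothelial and 5 of 6 mural markers fell, from 14.11 to 14.65 and from 14.21 to 14.47 in WT, to 13.30 to 13.42 and 13.35 to 13.48. Of 6 microglial markers, 2 rose, with levels of 12.53 to 13.20 in WT, and of 13.67, 13.77 and 15.49 for replicates 1, 2 and 3 of Qk-KO. The ependymal and choroid plexus list had 1 of 5 lower (15.63 to 16.15 against 14.47 to 15.51). The precursor list had 0 of 6 called by limma, and 0 at an unadjusted p under 0.05, with levels of 12.36 to 13.84 against 12.40 to 13.36. The neuronal list had 1 of 8 higher (9.54 to 9.86 against 9.37 to 10.05). No marker was listed at 0 in these lists. Over all 53 markers 17.0% rose and 35.8% fell, against 13.8% and 14.8% of all features. Scaling by total signal, which moved the median of all features from 0.03 to 1.09, is not given for the markers, so their directions hold for the deposited scale. In such bulk samples, fewer cells of a type and less RNA per cell cannot be told apart.

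Single markers, from the most abundant pair of each list, are given as differences. The gene of the myelin protein Mbp was higher by 1.07 ± 0.26 (adjusted p = 0.0176). The glutamate transporter Slc1a2 and the GABA transporter Slc6a11, both astrocyte markers, differed by -2.48 and -3.80 log2 units, a fall for each (adjusted p = 0.00053 and 0.000138). The microglial C1qa rose by 2.44 (adjusted p = 0.014). Flt1 and Cldn5 of endothelium were lower, at -1.10 and -1.01, as were Rgs5 and Myh11 of mural cells, at -1.06 and -0.83. The choroid genes Ttr and Kl differed by -0.84 (adjusted p = 0.0667) and -1.23 (adjusted p = 0.0023). The precursor genes Gpr17 and Cspg4 differed by 0.31 and -0.44 (adjusted p = 0.519 and 0.254), and the neuronal Snap25 and Syt1 by 0.02 and 0.25 (adjusted p = 0.959 and 0.482).

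The quaking motif was looked up in the 3′ untranslated region of the members because quaking is the protein whose gene was targeted. The letters searched were ACTAAC and ACTAAT on the transcript strand of mm10, in the longest basic GENCODE M21 transcript of each gene. Sites of 30 bases are shown 5′ to 3′ on the transcript strand, with the motif in capitals, for each called member that holds one.
Cacna1d, chr14:30041061-30041090, minus strand: aagttgACTAATttgcagtcttttctttgg
Cacna2d3, chr14:28905235-28905264, minus strand: cACTAACTAATgggatgttcttttggcatg
Cacnb1, chr11:98001639-98001668, minus strand: gcttccACTAACaggttagaagatagcact
Cacnb4, chr2:52432981-52433010, minus strand: ctttctACTAATgccttgaagtcaattttt
Cacng5, chr11:107875592-107875621, minus strand: tttgagACTAACctgggctgcatgcgacta
Trpm3, chr19:22994269-22994298, plus strand: tgtgagACTAACagactcacccattacctc

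The letters were in the untranslated region of 6 of 14 called members, or 42.9%, and in 13 of 24 tested members that were not called, or 54.2%. Over all 13308 tested genes with such a region the share was 34.9%, and it depends on length. Members' regions were longer, with a median of 1991.5 bases against 1209 over all genes. Per kilobase the motif occurred 0.243 times in called members, 0.383 in those not called and 0.345 over all genes. In a fixed window of the last 500 bases it was in 2 of 12 called members (16.7%), against 15.9% over 10073 genes. Cacng5 and Trpm3 each held a further site, at chr11:107875572-107875601 and chr19:22995143-22995172. The stretch shown for Cacna2d3 holds 2 matches, ACTAAC and ACTAAT, which overlap. Cacna2d2, Cacng8 and Trpc1 had no match, in regions of 1879, 43 and 1658 bases. That of Cacng8 is too short for the lack of a match to say much. A match here is a description of letters and not a binding site, and introns were not searched.

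The 250 bases before the RefSeq start (GRCm38.p6) are shown for the member with the lowest adjusted p and for the called TRPC member, which moved in opposite directions. Capitals mark the GC box GGGCGG, or CCGCCC where it lies on the other strand.
Cacna2d2, chr9:107399630-107399879, plus strand: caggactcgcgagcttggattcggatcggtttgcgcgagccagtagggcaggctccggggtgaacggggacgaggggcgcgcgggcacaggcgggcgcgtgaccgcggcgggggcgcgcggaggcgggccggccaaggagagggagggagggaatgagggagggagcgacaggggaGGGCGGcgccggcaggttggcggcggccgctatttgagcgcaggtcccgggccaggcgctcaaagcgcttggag
Trpc1, chr9:95750349-95750598, minus strand: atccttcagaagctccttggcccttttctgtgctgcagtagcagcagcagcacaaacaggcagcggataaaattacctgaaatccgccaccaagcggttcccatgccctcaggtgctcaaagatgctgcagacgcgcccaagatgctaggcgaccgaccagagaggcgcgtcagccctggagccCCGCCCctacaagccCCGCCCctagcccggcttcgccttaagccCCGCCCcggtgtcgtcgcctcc

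The Cacna2d2 window had 74.4% G and C, 34 CpG and 1 GC box, and the Trpc1 window had 62.8%, 17 CpG and 3 GC boxes. Over 32851 RefSeq promoters of this length the median was 52.4% and 6 CpG, and 32.7% held a GC box on either strand. The letters TATAAA were in neither window, against 12.4% of all promoters. Of the members, 48 symbols matched that table.

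Of the 61 members, 10 had no read in any library, 13 more fell below a mean normalized count of 20, and 38 were tested. Levels below are the deposited regularized log2 values, and a difference is Qk-KO minus WT in log2 units ± the standard error from limma, with n = 3 libraries a group. Adjusted p is limma's, by Benjamini-Hochberg over all 15153 features tested, and a gene is called when it is under 0.05. Of the 38 tested members, 3 rose and 11 fell, so 36.8% were called against 28.6% of all features. By direction, 7.89% rose against 13.8% of all features, and 28.9% fell against 14.8%. The median difference was -0.19 over the tested members and 0.03 over all features. Groups did not overlap for 18 members, or 47.4%, against 46.3% of all features. Calcium channel genes gave 10 of the 14 calls, TRP genes 4 and sodium channel genes 0.

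**Figure D1:**
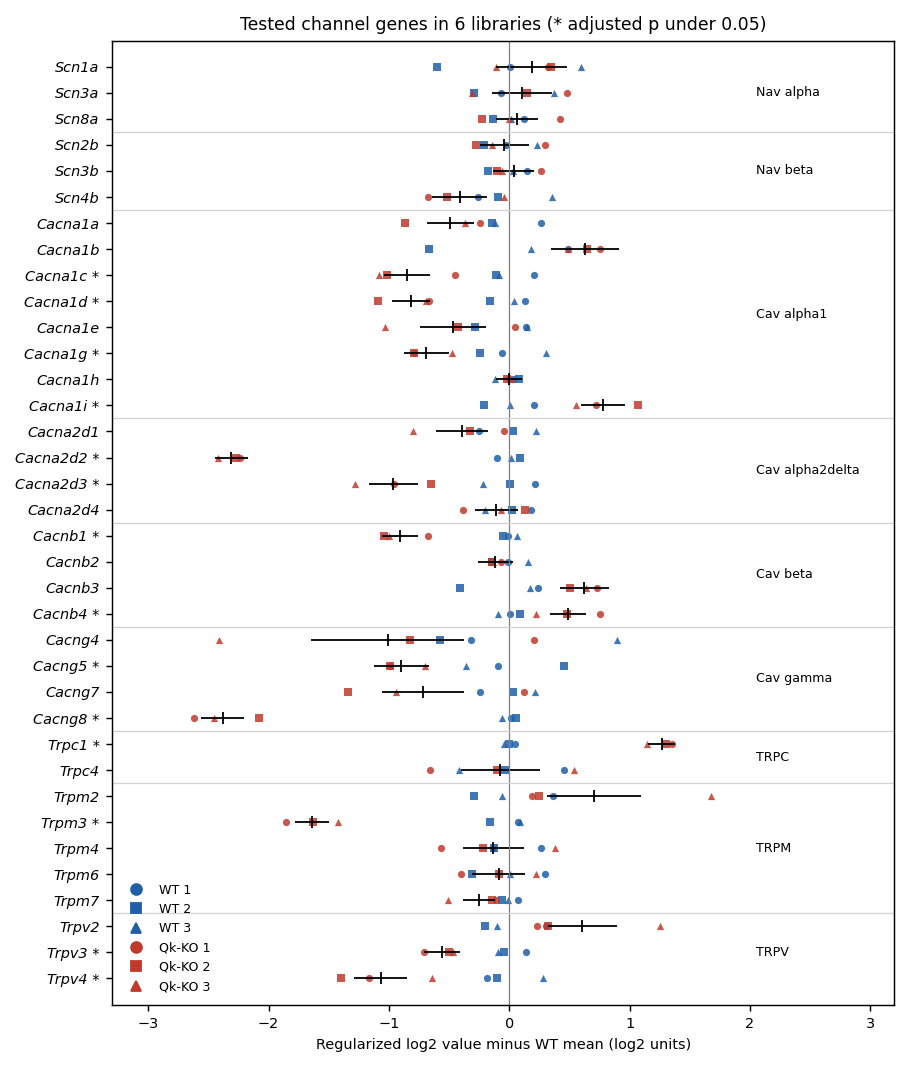
Regularized log2 value minus the WT mean (log2 units) for 36 of the 38 tested members by subfamily, with 1 point per library, and the limma difference with its standard error in black; an asterisk marks an adjusted p under 0.05. Sodium channel genes lie around 0, while Cacna2d2 and Cacng8 lie at -2.31 and -2.38 and Trpc1 at 1.27.

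**Figure D2:**
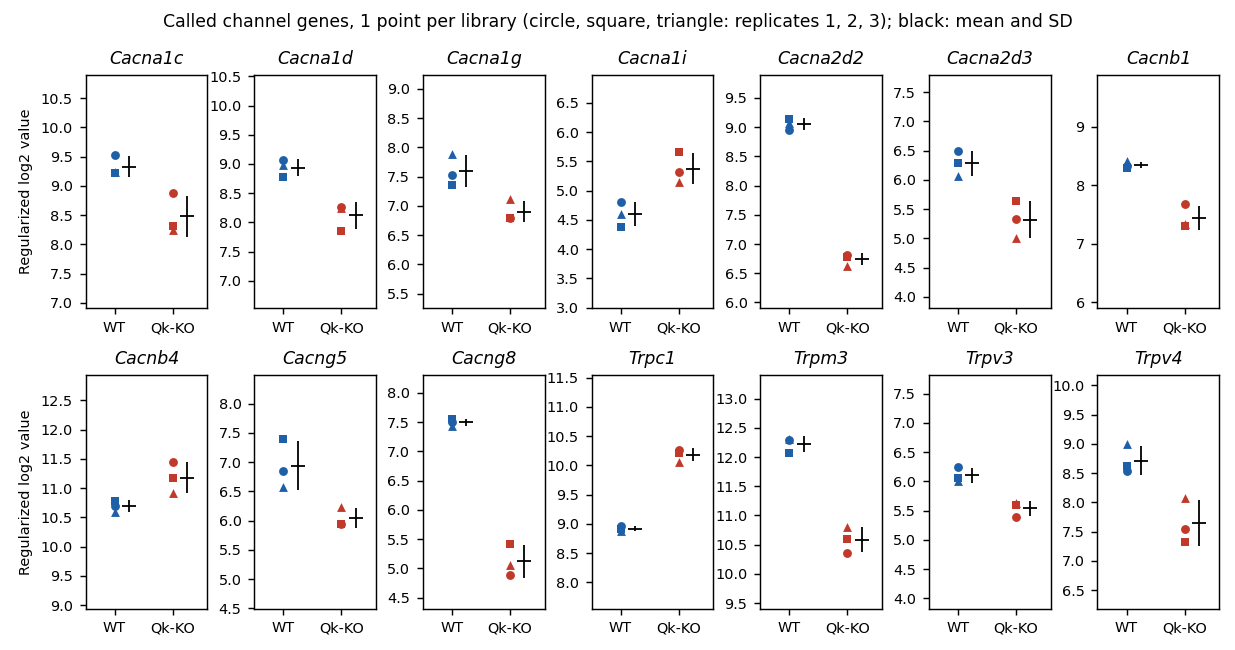
Regularized log2 value of the 14 called members, with 1 point per library (circle, square and triangle for replicates 1, 2 and 3) and the group mean with its SD in black; each panel has its own axis range. The WT and Qk-KO points do not overlap in any panel, and Cacna1i, Cacnb4 and Trpc1 are the genes whose Qk-KO points lie higher.

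The size of these differences depended on how libraries were scaled. When each library was scaled by its total signal, ribosomal RNA included, the median of all features moved from 0.03 to 1.09 and that of the members from -0.19 to 0.87. Under that scaling limma called 7 members higher and 0 lower, with 2 lower at an unadjusted p under 0.05, against 15.7% of all features higher and 0.429% lower. Of the 11 falls, those of Cacna1c, Cacna1d, Cacna1g, Cacna2d3, Cacnb1, Cacng5 and Trpv3 then changed sign, and those of Cacna2d2 (-1.25), Cacng8 (-1.32), Trpm3 (-0.58) and Trpv4 (-0.01) did not. With ribosomal features left out of the total, 3 members rose and 9 fell, while 1920 and 1890 of all 15153 features did. With library type as a term, 2 rose and 4 fell, while of all features 14.9% were called, 5.76% higher and 9.14% lower. The calls kept there were those of Cacna2d2, Cacnb1, Cacnb4, Cacng8, Trpc1 and Trpm3. For Qk-KO replicate 1 alone against WT, where ribosomal shares were alike, 2 rose and 5 fell, while of all features 15.5% were called, 6.17% higher and 9.37% lower. The authors' deposited table called 5 higher and 11 lower, while it called 27.9% of its 18597 features with an adjusted p, 13.7% higher and 14.2% lower. These were all 14 calls of limma and also Cacnb3 and Scn7a. Leaving out 1 library moved the number of members lower from 11 to 7 without WT replicate 1 or Qk-KO replicate 2. Over all features the number lower went from 2243 to 1569 and 1441 in those fits. The number of members higher went from 3 to 1 without WT replicate 2 or 3 or without Qk-KO replicate 2. Over all features the number higher went from 2087 to 1553, 1048 and 929 there.

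The alpha2delta family, whose members bring calcium channels to the surface, held the clearest fall. Cacna2d2 on chr9:107399612-107529343 was 8.95, 9.14 and 9.07 in WT, against 6.82, 6.78 and 6.63 in Qk-KO. It fell by 2.31 ± 0.14, or 4.96-fold (adjusted p = 8.73e-05). The 3 libraries labelled Qk-KO lay within 0.19 of each other and more than 2 log2 units below every WT library, and Qk-KO replicate 1 alone gave -2.23 (adjusted p = 0.00049). The authors' deposited table gives -3.11 (adjusted p = 4.92e-46).

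The other alpha2delta genes differed in whether they passed the test. Cacna2d3 on chr14:28904943-29721864 was 6.50, 6.29 and 6.07 in WT, against 5.32, 5.63 and 5.0 in Qk-KO, a fall of 0.96 ± 0.20 (adjusted p = 0.0109) with no overlap. Cacna2d1, a gene whose protein binds gabapentinoid drugs, was 8.50, 8.79 and 8.98 in WT, against 8.71, 8.43 and 7.96 in Qk-KO (-0.39 ± 0.22, adjusted p = 0.205). Cacna2d4, known from retinal photoreceptors, was not called at -0.11 ± 0.18 (adjusted p = 0.679). Groups overlapped for Cacna2d1 and Cacna2d4. In Qk-KO replicate 1 alone and with library type as a term, Cacna2d3 had the same difference of -0.96, which rests on that 1 library. It was called in the first of these fits and not in the second.

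Per kilobase of exon, with log2 values turned back to a linear scale, Cacna2d2 made up 45.1%, 48.0% and 47.1% of the summed alpha2delta level in WT. Its share was 18.5%, 16.8% and 18.7% in Qk-KO. Cacna2d4 held 26.2%, 21.9% and 19.3% in WT, against 31.7%, 42.5% and 45.7% in Qk-KO. The leading alpha2delta gene was thus Cacna2d2 in each WT library, Cacna2d1 in Qk-KO replicate 1 (43.8%) and Cacna2d4 in replicates 2 and 3. The summed level fell to 0.53 of the WT mean. For each of these the exact two-sided permutation p was 0.1, the smallest that 3 against 3 allows, and 0.193 after adjustment over the 52 shares compared and 0.18 over the 9 sums. Shares depend on the annotated exon length: with no division by it, the difference for Cacna2d2 was -25.3 percentage points in place of -28.7. In Qk-KO replicate 1 alone the difference for Cacna2d4 was 9.26 in place of 17.5 points. Every share given below whose groups do not overlap has the same exact p of 0.1. Sums, unlike shares, depend on how libraries are scaled. This sum and those below are on the deposited scale. They are not given with scaling by total signal, which moved the median of all features from 0.03 to 1.09.

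**Figure D3:**
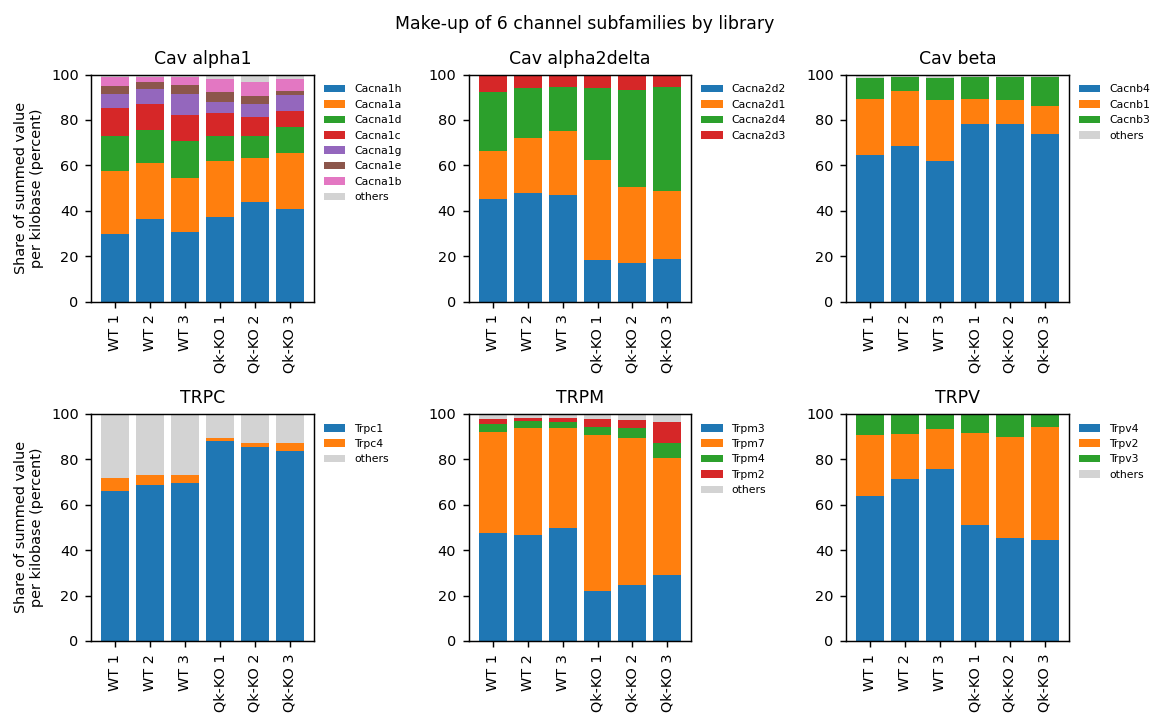
Share of each gene in the summed value per kilobase of its subfamily, in percent, as 1 stacked bar per library for 6 subfamilies. Cacna2d2 takes 45.1% to 48.0% in the WT bars and 16.8% to 18.7% in the Qk-KO bars, and Trpc1 takes 66.0% to 69.5% and 83.5% to 88.0%.

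Among L-type pore genes Cacna1c and Cacna1d fell, except with scaling by total signal, where their sign reversed, while Cacna1s was below the minimum and Cacna1f had no read. Those of the T type split. Cacna1c on chr6:118587240-119196418, an L-type pore, was 9.53, 9.22 and 9.24 in WT, against 8.88, 8.31 and 8.24 in Qk-KO, a fall of 0.85 ± 0.19 (adjusted p = 0.0141). Cacna1d on chr14:30039939-30491455, another L-type pore, was 9.06, 8.77 and 8.98 in WT, against 8.27, 7.85 and 8.24 in Qk-KO, a fall of 0.82 ± 0.16 (adjusted p = 0.00806). For both genes every library labelled Qk-KO lay below every WT library. The fall of Cacna1c was not called without WT replicate 1 (adjusted p = 0.0602), without Qk-KO replicate 2 (0.0573), or in Qk-KO replicate 1 alone, where it was -0.45 (0.159). That of Cacna1d was called with each library left out in turn, and was -0.67 in Qk-KO replicate 1 alone (adjusted p = 0.0556). With library type as a term neither was called (adjusted p = 0.145 for Cacna1c and 0.0825 for Cacna1d). Exons of Cacna1d share 589 bases with Chdh on the opposite strand, 4.67% of its exon length. Strandedness of the counting is not given in the sources used here, so reads there cannot be told apart.

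Among T-type pores, which open near the resting potential, Cacna1h was the most abundant and did not pass the test. It was 9.68, 9.73 and 9.53 in WT, against 9.65, 9.63 and 9.67 in Qk-KO, with adjusted p = 0.994, and the groups overlapped. Cacna1g on chr11:94408391-94474198 was 7.53, 7.35 and 7.89 in WT, against 6.80, 6.79 and 7.11 in Qk-KO, a fall of 0.69 ± 0.19 (adjusted p = 0.029). Cacna1i on chr15:80287238-80398279 was 4.80, 4.38 and 4.60 in WT, against 5.31, 5.67 and 5.14 in Qk-KO, a rise of 0.78 ± 0.19 (adjusted p = 0.017). The groups did not overlap for Cacna1g or Cacna1i, though Cacna1i rests on about 10 reads in its thinnest library. The call of Cacna1g was lost when any of WT replicate 1 (adjusted p = 0.0728), WT replicate 3 (0.0945), Qk-KO replicate 1 (0.0513) and Qk-KO replicate 2 (0.107) was left out. That of Cacna1i was lost when WT replicate 2 (0.0556) or 3 (0.0548) or Qk-KO replicate 2 (0.071) was left out. With the number series in the sample labels as a block, Cacna1g was at -0.62 (adjusted p = 0.0531). In Qk-KO replicate 1 alone neither was called (adjusted p = 0.0946 for Cacna1g and 0.0981 for Cacna1i).

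The P/Q-type pore gene Cacna1a was 9.80, 9.39 and 9.42 in WT, against 9.30, 8.67 and 9.17 in Qk-KO, with a difference of -0.49 ± 0.19 (adjusted p = 0.0931). Its groups did not overlap, and without Qk-KO replicate 1 the difference was -0.62 (adjusted p = 0.045). That fit keeps only Qk-KO replicates 2 and 3, where library type cannot be told apart from genotype, and replicate 1 was at -0.24 from the WT mean. The N-type Cacna1b and the R-type Cacna1e were not called, at 0.63 and -0.47 (adjusted p = 0.133 and 0.231). Per kilobase the summed pore level in Qk-KO was 0.79 of WT. Cacna1h held 29.9%, 36.4% and 30.5% of it in WT and 37.2%, 43.8% and 40.7% in Qk-KO. Cacna1d held 15.1%, 14.5% and 16% in WT, against 11.0%, 9.9% and 11.7% in Qk-KO.

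The cytoplasmic beta subunits, which hold the pore at the membrane, moved in opposite directions, except with scaling by total signal, where Cacnb1 was at 0.15. Cacnb1 on chr11:98001508-98023034 was 8.33, 8.30 and 8.41 in WT, against 7.67, 7.30 and 7.34 in Qk-KO, a fall of 0.91 ± 0.15 or 1.88-fold (adjusted p = 0.00388). Cacnb4 on chr2:52428320-52676831 was 10.70, 10.79 and 10.60 in WT, against 11.45, 11.17 and 10.92 in Qk-KO, a rise of 0.49 ± 0.15 (adjusted p = 0.0428). The groups did not overlap for either gene. With library type as a term and in Qk-KO replicate 1 alone, Cacnb1 had the same difference of -0.67, which rests on that 1 library. It was called in the first of these fits and missed the threshold in the second. The rise of Cacnb4 was 0.76 in Qk-KO replicate 1 alone (adjusted p = 0.0122). It was not called without WT replicate 1 (0.112), 2 (0.0747) or 3 (0.139), or without Qk-KO replicate 1 (0.0562) or 2 (0.115). With the number series in the sample labels as a block it was 0.42 (adjusted p = 0.0737). Exons of Cacnb4 share 1433 bases, 16% of their length, with A430018G15Rik on the opposite strand, whose mean normalized count was 9.90.

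Cacnb3 was 6.80, 6.16 and 6.74 in WT, against 7.29, 7.07 and 7.20 in Qk-KO, with no overlap (0.62 ± 0.20, adjusted p = 0.0532), and the authors' deposited table calls it (0.95, adjusted p = 0.0442). Cacnb2 was not called at -0.12 (adjusted p = 0.576). Cacnb4 made up 64.4%, 68.5% and 62.0% of the summed beta level per kilobase in WT and 78.1%, 78.2% and 74.0% in Qk-KO. Cacnb1 went from 24.7%, 24.1% and 26.9% to 11.2%, 10.6% and 12.3%, a difference of -13.9 points, or -8.81 with no division by exon length. The summed beta level in Qk-KO was 1.19 of WT.

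Among the gamma genes, Cacng8, which encodes an AMPA receptor partner of the TARP class, had the largest fall of any called member. Cacng8 on chr7:3390683-3415648 was 7.51, 7.56 and 7.44 in WT, against 4.88, 5.42 and 5.05 in Qk-KO. It fell by 2.38 ± 0.18 or 5.21-fold (adjusted p = 0.000127), with -2.62 in Qk-KO replicate 1 alone (adjusted p = 0.000548). Every library labelled Qk-KO lay more than 2 log2 units below every WT library. The authors' deposited table gives -3.68 (adjusted p = 8.54e-16). Its exons contain the small RNA gene Gm23450 on the same strand, over 91 bases.

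Cacng5, another TARP gene, on chr11:107874605-107915055, was 6.85, 7.40 and 6.58 in WT, against 5.95, 5.95 and 6.24 in Qk-KO, a fall of 0.90 ± 0.23 (adjusted p = 0.0217) without overlap. It was not called without WT replicate 1 (0.0577) or Qk-KO replicate 2 (0.0796), or in Qk-KO replicate 1 alone (0.0926). Cacng7, the highest member per kilobase in WT, was 9.59, 9.86 and 10.05 in WT, against 9.96, 8.49 and 8.89 in Qk-KO (-0.72 ± 0.34, adjusted p = 0.145). Qk-KO replicate 1 lay within the WT range of Cacng7, at 0.12 from the WT mean, and without it the difference was -1.14 (adjusted p = 0.00364). That fit keeps only Qk-KO replicates 2 and 3, where library type cannot be told apart from genotype. Cacng4 varied most within groups, at 8.68, 8.42 and 9.89 in WT, against 9.20, 8.17 and 6.58 in Qk-KO (-1.01 ± 0.64, adjusted p = 0.262). The gene pairs Cacng7 with Cacng8 and Cacng4 with Cacng5 are neighbours, with gaps of 22.5 and 80 kb, and in each pair 1 gene was called and the other was not. Cacna2d3 and Cacna1d, which both fell, are 318 kb apart on chromosome 14.

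Of the TRPC genes, receptor- and store-linked cation channels, Trpc1 rose. Trpc1 on chr9:95705082-95750375 was 8.96, 8.91 and 8.87 in WT, against 10.27, 10.21 and 10.06 in Qk-KO, a rise of 1.27 ± 0.11 or 2.40-fold (adjusted p = 0.000244). All 3 libraries labelled Qk-KO lay more than 1 log2 unit above every WT library, and Qk-KO replicate 1 alone gave 1.35 (adjusted p = 0.00186). The authors' deposited table gives 1.57 (adjusted p = 1.99e-17). It was the one rise that was called under every setting tried.

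Trpc4 was not called at -0.08 (adjusted p = 0.885). Trpc1 held 66.0%, 68.5% and 69.5% of the summed TRPC level per kilobase in WT and 88.0%, 85.2% and 83.5% in Qk-KO, and the sum was 1.91 times the WT mean. Both had the smallest permutation p that this design allows, 0.1, in the exact test. Trpc2, Trpc5, Trpc6 and Trpc7 fell below the minimum for testing.

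Of the TRPM genes, Trpm3, a channel opened by heat and by the steroid pregnenolone sulfate, fell. Trpm3 on chr19:22139046-22995410 was 12.30, 12.06 and 12.31 in WT, against 10.37, 10.59 and 10.80 in Qk-KO, a fall of 1.64 ± 0.14 or 3.12-fold (adjusted p = 0.000229). The groups did not overlap, and Qk-KO replicate 1, at 10.37, was the lowest library; alone it gave adjusted p = 0.000427. It had the highest log2 level of all members in WT, and the authors' deposited table gives -1.90 (adjusted p = 6.84e-21).

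Trpm7, a channel fused to a kinase that carries magnesium and calcium, was 11.10, 10.97 and 11.01 in WT, against 10.92, 10.88 and 10.52 in Qk-KO, with no overlap and no call (-0.25 ± 0.13, adjusted p = 0.187). Trpm3 and Trpm7 together held most of the TRPM level per kilobase. Trpm3 went from 47.4%, 46.6% and 49.9% of it in WT to 21.8%, 24.5% and 29% in Qk-KO, and Trpm7 from 44.7%, 47.0% and 43.7% to 68.9%, 64.9% and 51.5%. Trpm4, a sodium-passing channel opened by calcium, and Trpm6, a magnesium channel, were not called, at -0.13 and -0.09 (adjusted p = 0.727 and 0.793). Trpm2, opened by ADP-ribose, was 6.84, 6.19 and 6.42 in WT, against 6.67, 6.73 and 8.16 in Qk-KO (0.70 ± 0.39, adjusted p = 0.21). Its highest library was Qk-KO replicate 3, the library that also had the highest summed microglial level.

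Of the TRPV genes, Trpv4, a channel opened by osmotic swelling and warmth, fell. Trpv4 on chr5:114622152-114658421 was 8.53, 8.62 and 9.0 in WT, against 7.55, 7.31 and 8.07 in Qk-KO, a fall of 1.07 ± 0.22 or 2.10-fold (adjusted p = 0.0102). The groups did not overlap. In Qk-KO replicate 1 alone and with library type as a term, Trpv4 had the same difference of -1.17, which rests on that 1 library. It was called in the first of these fits and not in the second. Trpv3, a warmth-sensitive channel, on chr11:73267388-73300363, was 6.24, 6.05 and 6.01 in WT, against 5.39, 5.6 and 5.64 in Qk-KO, a fall of 0.56 ± 0.15 (adjusted p = 0.0275). That call was lost without WT replicate 1 (0.087), 2 (0.0544) or 3 (0.0555), and without Qk-KO replicate 1 (0.0526) or 2 (0.0866), and was not made in Qk-KO replicate 1 alone (0.0954).

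Trpv2 was 7.42, 6.92 and 7.01 in WT, against 7.35, 7.44 and 8.37 in Qk-KO (0.60 ± 0.29, adjusted p = 0.148). As for Trpm2, Qk-KO replicate 3 was its highest library. Trpv4 held 63.8%, 71.4% and 75.7% of the summed TRPV level per kilobase in WT and 51.1%, 45.2% and 44.5% in Qk-KO, and Trpv2 went from 26.8%, 19.9% and 17.4% to 40.4%, 44.8% and 49.6%. The summed TRPV level overlapped between groups, at 0.73 of WT (exact permutation p = 0.3).

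Channel genes and marker lists are set side by side by library. The 3 most strongly lowered members, Cacna2d2, Cacng8 and Trpm3, are drawn with the astrocyte list, whose summed level was 14.59, 14.78 and 14.12 in Qk-KO replicates 1, 2 and 3. Any gene or list that is lower in the whole Qk-KO group shows this separation, and the endothelial and mural lists do as well. So does the ependymal and choroid plexus list, at 15.63 to 16.15 in WT against 14.47 to 15.51 in Qk-KO. Within the Qk-KO group, Cacna2d2 was 6.82, 6.78 and 6.63, Cacng8 4.88, 5.42 and 5.05, and Trpm3 10.37, 10.59 and 10.80. The astrocyte sum was lowest in replicate 3, as Cacna2d2 was, and highest in replicate 2, as Cacng8 was. Trpm3 was lowest in replicate 1 and highest in replicate 3, as the ependymal and choroid plexus, endothelial and mural sums were. These orders rest on 3 libraries and were not tested. Cacng4 and Cacng7, which varied within the Qk-KO group, are drawn with the precursor list, at 13.36, 13.35 and 12.40 in those replicates. Trpm2 and Trpv2 are drawn with the microglial list and share its highest library. The part of these cell types in the channel values was not tested.

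**Figure D4:**
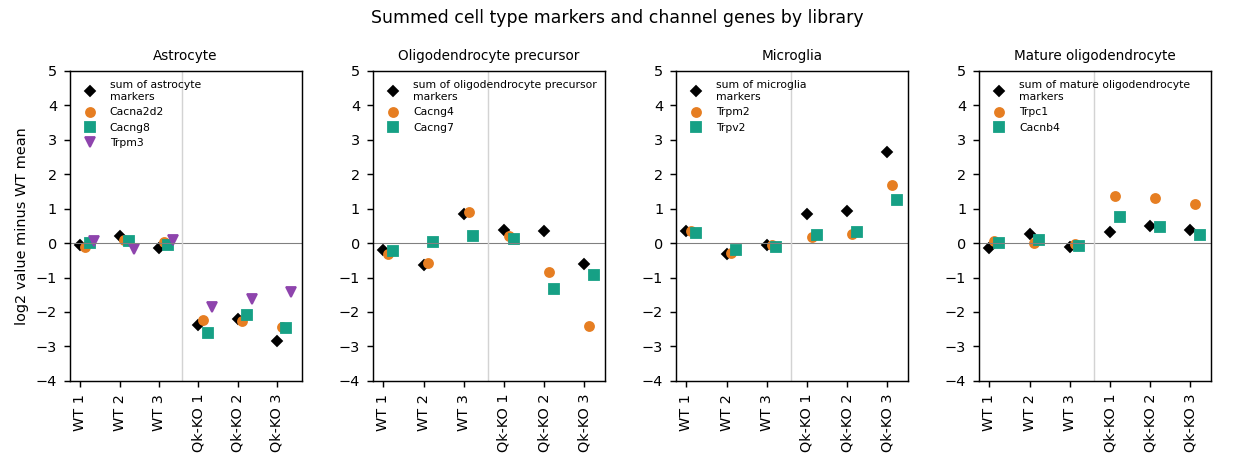
Log2 value minus the WT mean (log2 units) by library for 4 summed marker lists (black diamonds) and for channel genes drawn beside them. Cacna2d2, Cacng8, Trpm3 and the astrocyte sum are below the WT libraries in all 3 Qk-KO libraries, Trpm2, Trpv2 and the microglial sum are highest in Qk-KO replicate 3, and the pairing of lists with genes was chosen after their values were seen.

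The sodium channel genes gave no call. Of 13 members 7 were tested, and 0 were called by limma, 0 at an unadjusted p under 0.05 and 0 of these 7 in the authors' deposited table. Over all features 28.6% were called by limma, so a count of 0 among 7 genes says little. The count also depends on the rule and the filter. Scn2a1, outside the rule, had an unadjusted limma p of 0.0478, and limma called Scn7a when the minimum count was 5. Scn8a, the pore gene of nodes of Ranvier, on chr15:100869858-101045938, was 9.35, 9.09 and 9.24 in WT, against 9.65, 9.0 and 9.22 in Qk-KO (0.06 ± 0.18, adjusted p = 0.817). Scn3a, a pore gene of the developing brain, was 6.65, 6.43 and 7.10 in WT, against 7.21, 6.87 and 6.42 in Qk-KO (0.10 ± 0.25, adjusted p = 0.785). The groups overlapped for both.

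Scn3b, a beta subunit gene, was 6.63, 6.31 and 6.51 in WT, against 6.75, 6.38 and 6.42 in Qk-KO (0.03 ± 0.17, adjusted p = 0.9). The pore gene Scn1a and the beta genes Scn2b and Scn4b were also not called, at 0.19, -0.04 and -0.41 (adjusted p = 0.662, 0.902 and 0.21). Scn2a1, outside the rule, was 7.94, 7.38 and 7.55 in WT, against 8.47, 8.24 and 7.75 in Qk-KO (0.53 ± 0.23, adjusted p = 0.115). With Scn2a1 counted in, Scn8a held 55.6%, 58.2% and 53.6% of the summed pore level per kilobase in WT and 52.0%, 44.5% and 55.8% in Qk-KO (exact permutation p = 0.3). The pore and beta sums were 1.07 and 1.11 of WT (exact permutation p = 0.8 and 0.4), with overlap in both.

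Per kilobase of exon in WT, Cacng7 led at 377 ± 59.1 (SD, n = 3), followed by Trpm3 at 197 ± 18.6, Cacnb4 at 185 ± 12.2, Trpm7 at 185 ± 8.78, Cacng4 at 159 ± 93.1 and Trpv4 at 104 ± 18.5. Trpm3, Cacnb4 and Trpm7 did not differ beyond their spread, and neither did Cacng4 from its neighbours in this order. Cacna1h at 82.4 and Cacng8 at 77.3 were lower still. In Qk-KO, Cacnb4 led at 262 ± 48.4 and Trpc1 moved from place 13 to place 4 at 145. Cacna2d2 went from place 11 to place 24 and Cacng8 from place 9 to place 21. The exon union used for Trpm3 is long, so its per-kilobase value may be understated.

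**Figure D5:**
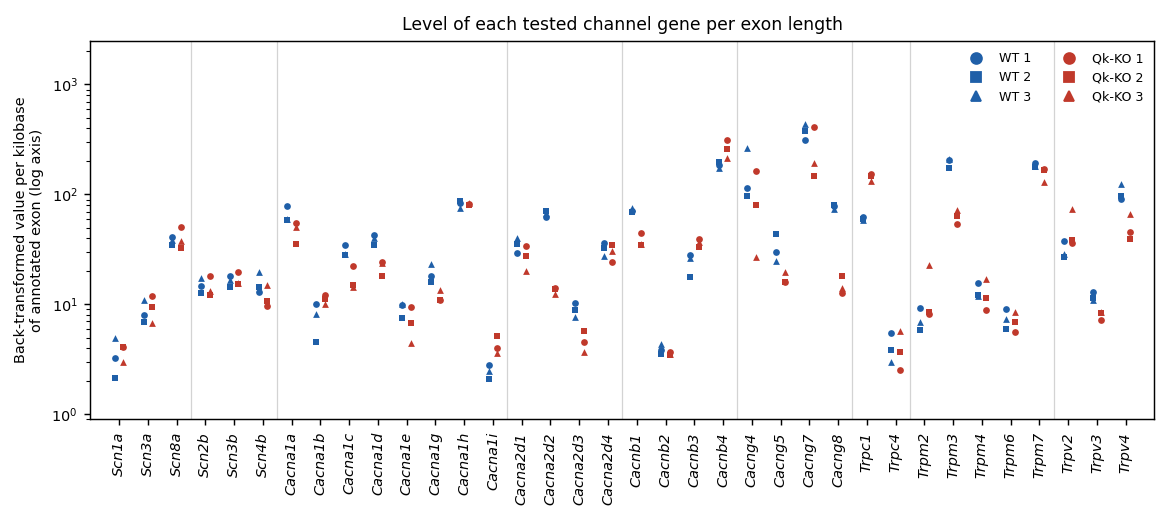
Back-transformed value per kilobase of annotated exon, on a log axis, for 36 of the 38 tested members in each library (WT blue, Qk-KO red). Cacng7 is highest on average in WT at 377, Cacnb4 is highest in Qk-KO at 262, and the points of the sodium channel genes overlap between groups.

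The members that were not tested included genes best known from muscle, heart, retina or sensory neurons. Those with no read in any library were Cacna1f, Cacng1, Cacng6, Scn4a, Scn10a, Scn11a, Trpa1, Trpm8, Trpv5 and Trpv6. Of all 21930 protein-coding rows, 5115 had no read. Cacna1s, Cacng2, Cacng3, Scn7a, Scn9a, Trpc2, Trpc5, Trpc6, Trpc7, Trpm1, Trpm5 and Trpv1 had reads but were among the 13 below the minimum. Among these, Scn7a had values of 3.59, 3.68 and 3.77 in WT, against 4.08, 4.02 and 4.05 in Qk-KO, and the authors' deposited table calls it higher (1.72, adjusted p = 0.0325).

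Other genes that move sodium or calcium, listed by role, gave calls in both directions. Of 59 such genes 49 were tested, and 9 rose and 16 fell, or 51.0% called against 28.6% of all features, with a median difference of -0.12. Of 6 calcium pump genes tested 5 fell, though with scaling by total signal none of the 16 falls was called and Atp2a2, Atp2a3, Itpr1 and Pkd2 reversed. Without replicate 1 or 3 of WT, or replicate 2 of Qk-KO, 5 genes were called higher in place of 9. Over all features 1094, 1048 and 929 were higher in those fits, in place of 2087. Atp2b2 and Atp2b4, pumps of the plasma membrane, fell, at -1.37 ± 0.12 and -1.31 ± 0.15 (adjusted p = 0.000205 and 0.000679). Atp2a2 and Atp2a3, pumps of the endoplasmic reticulum, fell, at -0.58 and -0.92 (adjusted p = 0.00696 and 0.00609). Of 5 calcium release channels tested 3 fell, among them the inositol trisphosphate receptor Itpr1 by 0.71 (adjusted p = 0.00662). The lysosomal channel Tpcn1 fell by 1.27 ± 0.13 (adjusted p = 0.000519), and the polycystin Pkd2 fell by 0.83 (adjusted p = 0.00352).

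Genes of sodium entry and sodium-calcium exchange included rises. Of 4 sodium-calcium exchanger genes tested, 2 rose and 1 fell, and the list with the stretch-gated channels had 2 higher and 2 lower of 7. Over all features 13.8% rose and 14.8% fell. Slc8a3, an exchanger that moves calcium out against sodium, was 9.88, 9.97 and 9.92 in WT, against 11.18, 11.11 and 11.04 in Qk-KO, a rise of 1.18 ± 0.10 (adjusted p = 0.000214). Slc8a1, of the same family, rose by 0.56 (adjusted p = 0.00682), and Nalcn, the sodium leak channel, rose by 1.24 ± 0.16 (adjusted p = 0.00119). The stretch-gated channel Piezo2 rose by 1.43 ± 0.22 (adjusted p = 0.00278), and the calmodulin gene Calm2 by 0.69 ± 0.11 (adjusted p = 0.00313). All 12 called transport genes named here were also called in Qk-KO replicate 1 alone, with adjusted p from 0.000989 for Atp2b2 to 0.0398 for Atp2a2. None of the 5 store-operated entry genes, the Stim sensors and Orai pores, was called by limma, nor was any at an unadjusted p under 0.05. As 28.6% of all features were called, a count of 0 among 5 genes says little. Groups did not overlap for 1 of the 5, which was lower, against 46.3% of all features. Ank2 and Ank3, the ankyrins that anchor sodium channels, were not called at -0.19 and 0.39 (adjusted p = 0.357 and 0.127).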

How the data were processed

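RNA-seq of 3 WT and 3 Qk-KO libraries was used. The submitters' processing notes name FastQC, TopHat2 2.0.14, featureCounts and DESeq2 as the tools of the authors, with build mm10. What annotation release, read length and strandedness were used is not given in the sources used here. For each library the authors deposited log2 values, which behave as regularized log2 values: size factors scale them, and a gene with few reads is shrunk toward its mean. A signal, the mean normalized count over all 6 libraries, was also deposited. The authors' own comparison, per the file headers, holds log2 fold changes and their errors, a Wald score for each feature, and p-values before and after adjustment.

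Because the values are not counts, limma 3.58.1 (R 4.3.3) with a mean-variance trend was fitted to the deposited log2 values of 15153 features whose mean normalized count reached 20, with genotype as the only term and no pseudocount. Adjusted p-values (Benjamini-Hochberg) under 0.05 were called. Read totals were estimated from the steps of low mean normalized counts and are approximate. Per-kilobase values used back-transformed values and GENCODE M21 exon lengths. Shares and sums were compared by exact two-sided permutation. Members, gene lists and settings were chosen with earlier results of these data known. Values are given for called members, the 2 most abundant tested members of each subfamily, members whose groups do not overlap, up to 12 called transport genes by adjusted p and the 2 most abundant, and the 2 most abundant markers of each cell type; other members are given by name. Some genes that this selects are not reported here. Settings tried were other filters, scalings, variance models, blocks, library type, Qk-KO replicate 1 alone, leaving out each library, and the authors' table.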

Additional observations from a re-analysis of the deposited data

How the results depend on the processing

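Depth differed between the groups, the 2 deepest libraries are both labelled Qk-KO, and regularized values understate differences of thinly read genes, so values of weakly read members such as Cacna1i and Cacna2d3 are the least certain. Over all features 2087 rose and 2243 fell, against 2382 and 65 with scaling by total signal, 873 and 1385 with library type as a term, and 935 and 1420 in Qk-KO replicate 1 alone. The share of calls that were higher was 48.2%, and it was 97.3%, 38.7% and 39.7% in those settings. Leaving out 1 library gave 929 (without Qk-KO replicate 2) to 2840 (without Qk-KO replicate 1) higher, with 1094 and 1048 when WT replicate 1 or 3 was dropped, and 1441 (without Qk-KO replicate 2) to 2793 lower. Members called were 3 higher and 11 lower, against 7 and 0 with scaling by total signal (2 lower at an unadjusted p under 0.05 by limma), 4 lower with library type as a term, 5 lower in Qk-KO replicate 1 alone and 5 higher in the authors' deposited table. Leaving out 1 library gave 1 to 3 higher and 7 to 12 lower. For the other transport genes, 9 higher and 16 lower became 0 lower with scaling by total signal (0 at an unadjusted p under 0.05 by limma) and 8 lower with library type as a term, and leaving out 1 library gave 5 to 9 higher and 11 to 16 lower.

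Scaling by total signal, which raised the median of all features to 1.09, reversed the sign of 11 called falls: Cacna1c was 0.21, Cacna1d 0.24, Cacna1g 0.37, Cacna2d3 0.094, Cacnb1 0.15, Cacng5 0.16, Trpv3 0.50, Atp2a2 0.47, Atp2a3 0.13, Itpr1 0.35 and Pkd2 0.23, each below that median. Cacna2d2, Cacng8, Trpm3 and Trpv4 kept their sign at -1.25, -1.32, -0.58 and -0.01 and were not called. No other alternative reversed a called gene. Across 41 genes and 696 values, 622 kept their side of the threshold, 52 lost a call and 11 gained one. The other 11 are the reversals with scaling by total signal. In addition, 25 values of genes that were not called changed sign. With the number series in the sample labels as a block, 2 members rose and 10 fell, and Cacna1g and Cacnb4 lost their calls. Of all features 2094 rose and 2226 fell there.

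With the replicate number as a replicate block, 2091 features rose and 2254 fell, 4 members rose and 11 fell, and 9 and 16 of the other transport genes did. Cacna1a and Cacnb3 were then called (adjusted p = 0.0429 and 0.0413) and Trpv3 was not (0.0555). Deviations of same-numbered libraries correlated at 0.104, 0.00462 and 0.0821, so the libraries are taken to share only a number.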
